A study of Mus musculus with 3 samples.

Results

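The genes of 9 G protein-coupled receptors that steer migrating leukocytes were examined, namely Ccr2, Ccr7, Ccr9, Cxcr3, Cxcr4, Cxcr5, Cxcr6, Cx3cr1 and Gpr15. They were chosen by name, with earlier results of these data known. Every probe set annotated with exactly 1 of these symbols was taken. This gave 18 probe sets for 9 genes out of 34945 single-symbol probe sets for 18193 genes. RNA of sorted mouse CD8+ T cells had been hybridised to 3 Affymetrix mouse genome arrays, with 1 array for each of 3 groups. The first group was NK1.1+ cells, and the second NK1.1- cells, of Tgfbr2fl/fl x CD4-Cre mice aged 15 to 17 days (KO), in which both copies of the gene for the type II TGF-β receptor are floxed. The third was cells of Tgfbr2fl/wt x CD4-Cre littermates (control), which also carry the Cre and 1 floxed copy. Cre under the Cd4 promoter acts in developing T cells before the CD4 and CD8 lineages part, so mature CD8+ cells carry the deletion as well. The control cells are called NK1.1- in the sample title and unfractionated CD8+ cells in one passage of the design text. The sources used here give neither the tissue of origin nor the number of mice per array.

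Chemokine receptors are 7-pass membrane proteins that signal mainly through inhibitory G proteins, and a cell moves toward the source of the ligand it can sense. Naive T cells use CCR7 to enter lymph nodes, while effector T cells lose CCR7 and carry receptors such as CXCR3, CCR2, CXCR6 and CX3CR1 that read inflammatory chemokines or vessel-bound ones. CCR9 and GPR15 guide lymphocytes to the small intestine and the colon. CXCR5 leads to B cell follicles and CXCR4 to bone marrow. TGF-β is known to favour the gut-homing, tissue-resident state of CD8+ T cells over the circulating effector state.

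Promoter windows were available for 7 of the 9 genes, from 250 bases before to 50 after the annotated start (RefSeq, GRCm38.p6). Those of 1 gene far above control and 2 genes far below it are shown because these genes moved in opposite directions in the receptor-deficient cells. Each is read 5′ to 3′ on the strand of its gene. Capitals mark matches, on either strand, to CACCC, a core bound by KLF factors, to CAGAC, a core bound by SMAD proteins, and to TGTGGT, a core bound by RUNX factors.
Cx3cr1, chr9:120068247-120068546, - strand: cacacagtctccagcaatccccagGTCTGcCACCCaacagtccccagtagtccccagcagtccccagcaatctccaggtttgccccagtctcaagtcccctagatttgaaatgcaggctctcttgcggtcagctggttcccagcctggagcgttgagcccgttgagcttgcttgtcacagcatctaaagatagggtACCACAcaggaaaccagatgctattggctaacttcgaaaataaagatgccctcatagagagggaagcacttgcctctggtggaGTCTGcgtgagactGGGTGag
Ccr9, chr9:123766961-123767260, + strand: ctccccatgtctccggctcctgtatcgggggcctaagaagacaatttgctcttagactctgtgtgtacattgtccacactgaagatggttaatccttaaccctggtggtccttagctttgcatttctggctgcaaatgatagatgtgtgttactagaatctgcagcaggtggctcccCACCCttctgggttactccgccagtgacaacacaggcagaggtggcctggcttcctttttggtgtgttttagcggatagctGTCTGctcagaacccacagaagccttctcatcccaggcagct
Gpr15, chr16:58718823-58719122, - strand: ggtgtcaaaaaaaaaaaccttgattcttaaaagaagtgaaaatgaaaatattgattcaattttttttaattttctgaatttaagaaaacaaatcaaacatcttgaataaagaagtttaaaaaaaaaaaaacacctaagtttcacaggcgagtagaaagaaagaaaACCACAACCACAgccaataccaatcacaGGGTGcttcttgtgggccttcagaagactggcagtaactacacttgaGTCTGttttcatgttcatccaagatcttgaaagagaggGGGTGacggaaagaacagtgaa

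The Cx3cr1 window, of a gene far above control, held 2 CACCC, 2 CAGAC and 1 TGTGGT match. The Gpr15 window, of a gene below control, held 2 CACCC, 1 CAGAC and 2 TGTGGT matches, with the TGTGGT matches side by side. The Ccr9 window held 1 CACCC, 1 CAGAC and 0 TGTGGT matches. Short cores of this kind are common, since CACCC stood in 57.5%, CAGAC in 49.6% and TGTGGT in 16.8% of 32851 windows of the same length. Each of these 3 cores stood in 4 of the 7 windows. The T-box half-site AGGTGTGA and the full SMAD element GTCTAGAC were found in 0 of the 7 windows and in 1.28% and 0.213% of all windows. The motifs were counted with the differences known, and the matches describe letters only.

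Each group has a single array, hence no measure of variation among mice, no test and no replicate check for any difference below. Values are deposited probe set intensities, and values from 9.66 upward counted as measured, this level being set by 145 probe sets of genes not used by lymphocytes, such as odorant receptors, as the 95th percentile of their values. Taken by array, that percentile was 17.0 on the KO NK1.1+ array, 9.29 on the KO NK1.1- array and 8.31 on the control array. Lower values were set to 9.66, which makes any difference with one side there a lower bound, written "at least". Calls (higher or lower) needed a 2-fold difference of the gene's brightest probe set. The pooled SD of log2 differences among probe sets of the same gene was 0.89 (4689 genes) when the KO NK1.1+ array was set against control, 0.46 (4542 genes) for the KO NK1.1- array and 0.80 (4666 genes) for one KO array against the other. The hybridisation controls were 2.36-fold higher on the KO NK1.1+ array, and 0.937-fold as high on the KO NK1.1- array, as on the control array, and the 3′ to 5′ ratio of Actb was 81.9, 12.3 and 6.02 on the KO NK1.1+, KO NK1.1- and control arrays, while that of Gapdh was 10.8, 26.7 and 17.8, in another order. The brightest Tgfbr2 probe set read 1808 in KO NK1.1+, 1271 in KO NK1.1- and 2634 in control cells, and may lie outside the deleted part. The probe set shared by Klrb1b and Klrb1c, which encodes NK1.1, read 1618, 52.7 and 7.09 in the same order. Cd3e, encoding a T cell receptor chain partner, read 776, 750 and 701, and Cd8a read 524, 1027 and 1786.

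The KO NK1.1+ array measured 7 of the 9 receptor genes, the KO NK1.1- array 8 and the control array all 9. As these receptors were chosen with earlier results of these data known, an excess over the shares of all genes is no independent result. In KO NK1.1+ against control, 3 of 9 were called higher, where 9.85% of 10633 measured genes were, and 4 were called lower, where 22.9% of all measured genes were. In KO NK1.1- against control, 4 of 9 were called higher, against 8.05% of 10047 measured genes, and 3 lower, against 5.56%. Between the KO fractions, 1 of the 8 measured was called higher in KO NK1.1+ cells (6.53% of 10625 genes) and 4 lower (21.3%). A lower call needs a bright value on the second-named array. Of 8 receptors at 2 times the level or more in control, 4 were called lower in KO NK1.1+ cells, beside 29.6% of 8221 such genes, and 3 in KO NK1.1- cells, beside 6.8%. Higher calls likewise need a bright value on the first-named array. Of 6 receptors bright enough in KO NK1.1+ cells, 3 were called above control, beside 13.1% of 7981 genes, and of 8 in KO NK1.1- cells 4 were, beside 9.76% of 8292. For the KO fractions against each other, the counts were 1 of 6 called higher, beside 8.7%, and 4 of 8 called lower, beside 27.3%. The median log2 difference of the receptors was -0.57, beside -0.17 over all measured genes, for KO NK1.1+ against control. It was 0.83 beside 0.01 for KO NK1.1- against control and -0.43 beside -0.24 between the KO fractions. The same call was made in both KO fractions for 5 receptors, Cx3cr1 and Ccr2 higher and Ccr7, Ccr9 and Gpr15 lower, and both comparisons use the same control array. Cxcr5 was called in opposite directions, and Cxcr6 was called in neither.

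**Figure D1:**
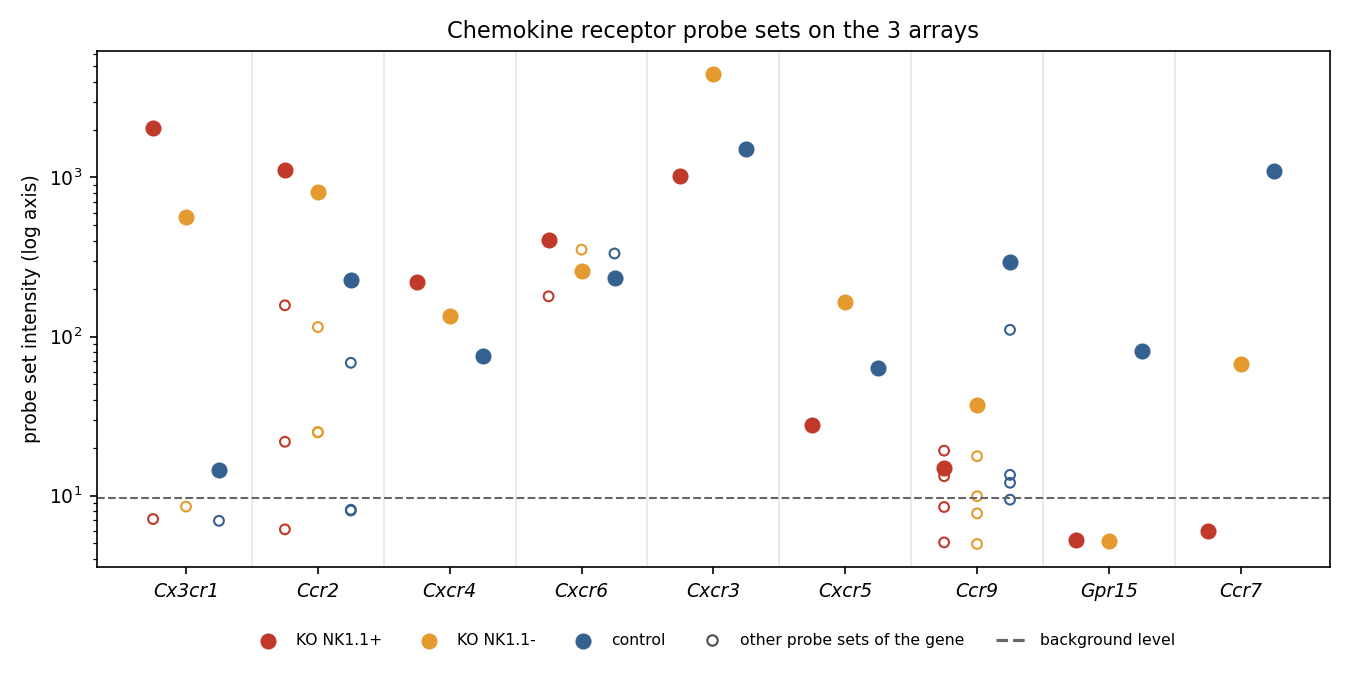
Intensity (log axis) of every probe set of the 9 chemokine receptor genes on the KO NK1.1+, KO NK1.1- and control arrays, with filled points for the brightest probe set of a gene, open points for its other probe sets and a dashed line at the background level of 9.66. Cx3cr1 stands at 2049 and 568 on the KO arrays and at 14.5 on the control array, while Ccr7 stands at 6.01 and 67.1 on the KO arrays and at 1101 on the control array.

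Cx3cr1 encodes the receptor for fractalkine (CX3CL1), a chemokine anchored on vessel walls, and marks terminal effector CD8+ T cells, NK cells and patrolling monocytes. Its probe set 1450020_at read 2049 in KO NK1.1+, 568 in KO NK1.1- and 14.5 in control cells. Both KO fractions were far above control, where the gene was close to the background level. The difference was 141-fold in KO NK1.1+ cells and 39.1-fold in KO NK1.1- cells (log2 7.14 and 5.29). Over the alternatives the differences ranged from 3.57 to 7.59 and from 2.65 to 5.38 on the log2 scale, lowest with both probe sets averaged. Among all measured genes it ranked number 6 from the top in the first comparison and number 5 in the second. KO NK1.1+ cells were 3.61-fold above KO NK1.1- cells, which fell to a log2 difference of 0.93 when its probe sets were averaged and to 0.52 with arrays scaled to the hybridisation controls. The second Cx3cr1 probe set read 7.12, 8.52 and 6.94 in KO NK1.1+, KO NK1.1- and control cells, below the level on all 3 arrays, so the increase rests on 1 probe set.

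Ccr2 encodes the receptor for CCL2 and related monocyte chemoattractants and is used by memory and effector T cells as well as by classical monocytes. Its brightest probe set, 1421186_at, read 1114 in KO NK1.1+, 815 in KO NK1.1- and 226 in control cells, with both KO fractions above control and close to each other. Ccr2 was 4.93-fold higher in KO NK1.1+ and 3.61-fold higher in KO NK1.1- than in control cells (log2 2.30 and 1.85). With all probe sets averaged the differences were 1.17 and 1.34, and with arrays scaled to the hybridisation controls 1.06 and 1.95. KO NK1.1+ and KO NK1.1- cells differed by 1.37-fold, less than the 2-fold limit, and this small difference had the opposite sign, a log2 value of -0.88, with arrays scaled to the hybridisation controls. A second probe set read 157, 115 and 68.3 in KO NK1.1+, KO NK1.1- and control cells, and another 21.8, 25.1 and 8.14. All 3 Ccr2 probe sets measured in KO NK1.1+ against control were at least 2-fold higher, with log2 differences of 1.17 to 2.30. The other Ccr2 probe set, which read 6.13, 24.9 and 8.05, was measured in KO NK1.1- cells alone. Of the 4 measured in KO NK1.1- against control, 3 were at least 2-fold higher, over a range of 0.75 to 1.85, and the exception was the second probe set at 0.75.

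Both of these receptors are also made by monocytes, and markers of that lineage were high on the KO NK1.1+ array. Of 17 monocyte and macrophage marker genes on the array, 13 were measured on the KO NK1.1+ array, 8 on the KO NK1.1- array and 7 on the control array, and their summed intensity was 27667, 933 and 533. In KO NK1.1+ against control, 12 of 13 measured markers were called higher, among them Csf1r, the receptor of macrophage colony-stimulating factor, at 7666 against 30.5, and Adgre4, a surface protein of macrophages, at 1685 against 11.1. Cd14, Itgam, C1qa and Ms4a7 were below the level on all 3 arrays. In KO NK1.1- against control, 1 of 8 was called higher, Tyrobp, an adaptor that NK cells also use, chosen after its value was seen. Csf1r there read 54.5 against 30.5 and Adgre4 12.9 against 11.1, beside the 39.1-fold difference of Cx3cr1 and the 3.61-fold difference of Ccr2. NK cells carry CX3CR1 too. Their markers were called higher against control for 7 of 8 in KO NK1.1+ and 4 of 7 in KO NK1.1- cells. The summed intensities of these markers were 20280, 11939 and 5430 in KO NK1.1+, KO NK1.1- and control cells. Most of each sum came from Klrd1, at 11874, 5403 and 3687, and Nkg7, at 5145, 4227 and 1046. Both were bright in control cells too, where the probe set of NK1.1 was below the level. Tyrobp stands on this list and on the monocyte list. Ncr1, encoding NKp46, was below the level on all 3 arrays. The part of monocyte and NK cell RNA in the receptor values was not tested. In RNA taken from many cells together, fewer cells of a type and less RNA per cell cannot be told apart.

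**Figure D2:**
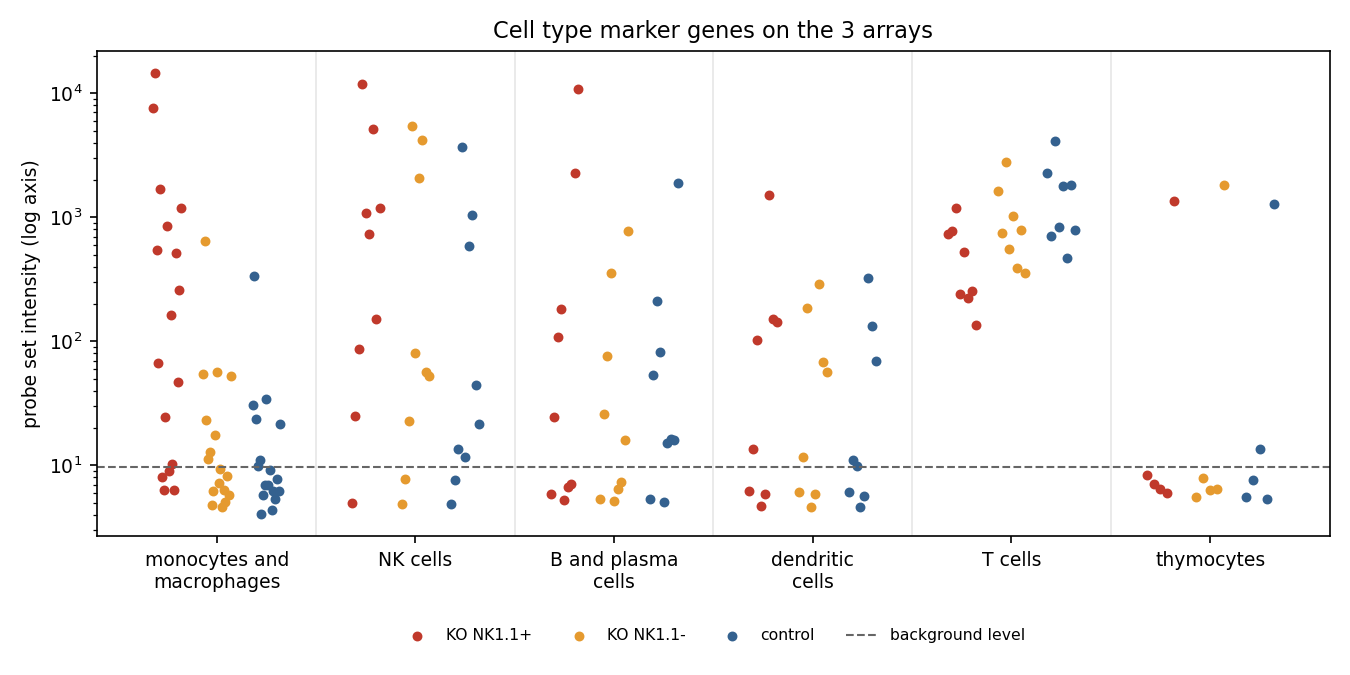
Intensity (log axis) of marker genes of 6 cell types on the KO NK1.1+, KO NK1.1- and control arrays, with 1 point per gene and a dashed line at the background level. Monocyte and macrophage markers sum to 27667 on the KO NK1.1+ array, 933 on the KO NK1.1- array and 533 on the control array, and T cell markers to 4075, 8287 and 12816.

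Cxcr3, the receptor for the interferon-induced chemokines CXCL9, CXCL10 and CXCL11 and a mark of type 1 effector T cells, followed another order. Its probe set 1449925_at read 1020 in KO NK1.1+, 4457 in KO NK1.1- and 1512 in control cells, so that the KO NK1.1- fraction stood above both others. The gene was 2.95-fold higher in KO NK1.1- than in control cells, and 4.37-fold lower in KO NK1.1+ than in KO NK1.1- cells. KO NK1.1+ and control cells differed by 1.48-fold (log2 -0.57), which became -1.81 with arrays scaled to the hybridisation controls. Cxcr3 has no other probe set. On the same arrays 7 of 8 T cell markers were called lower in KO NK1.1+ than in control cells, with Cd3d at 738 against 2275 and Cd3g at 1185 against 4146, but not Cd3e at 776 against 701. Between the KO fractions 5 of the 8 were called lower in KO NK1.1+ cells, with a median log2 difference of -1.17, beside -2.13 for Cxcr3. The part of a lower share of T cell RNA in the Cxcr3 difference was not tested.

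Cxcr6 encodes the receptor for CXCL16 and is carried by tissue-resident and cytotoxic T cells. Its brighter probe set, 1422812_at, read 404 in KO NK1.1+, 260 in KO NK1.1- and 234 in control cells, and its other probe set 179, 352 and 333. The first was highest, and the second lowest, in KO NK1.1+ cells, so the 2 probe sets disagreed in direction there, with log2 differences from control of 0.79 and -0.90. In KO NK1.1- cells they gave 0.15 and 0.08. Neither passed the 2-fold limit in any of the 3 comparisons. The brighter probe set alone reached 1.05 and 1.23 in KO NK1.1+ against control after quantile normalization and after scaling to the median of commonly measured genes, and -0.45 after scaling to the hybridisation controls.

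Ccr7 encodes the receptor for CCL19 and CCL21, the chemokines that bring naive T cells and dendritic cells into lymph nodes. The gene, with the single probe set 1423466_at, read 6.01 in KO NK1.1+, 67.1 in KO NK1.1- and 1101 in control cells. Control cells were far above both KO fractions, and KO NK1.1+ cells were below the background level. Ccr7 was at least 114-fold lower in KO NK1.1+ and 16.4-fold lower in KO NK1.1- than in control cells (log2 -6.83, a bound, and -4.04). Over the alternatives these ranged from -6.96 to -4.35 and from -4.08 to -3.52. It ranked number 2 from the bottom among all measured genes in KO NK1.1- against control. It was at least 6.94-fold lower in KO NK1.1+ than in KO NK1.1- cells, a difference that shrank to a log2 value of -0.31 with the level moved to the 75th percentile of the table. Dendritic cells also carry CCR7, and of 5 measured markers of these cells 3 were called higher and 0 lower in KO NK1.1+, and 1 higher and 0 lower in KO NK1.1-, against control. The marker called higher in KO NK1.1- cells was Itgax, an integrin chain gene, at 104 in KO NK1.1+, 187 in KO NK1.1- and 9.88 in control cells. Its differences from control were 10.5-fold and 18.9-fold. H2-Aa, encoding an MHC class II chain, read 1517, 289 and 325 in KO NK1.1+, KO NK1.1- and control cells, and Flt3, Xcr1 and Siglech were below the level on all 3 arrays. The part of dendritic cell RNA in the Ccr7 values was not tested.

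Cxcr5 encodes the receptor for CXCL13, which draws B cells and follicular helper T cells into follicles. Its probe set 1422003_at read 27.9 in KO NK1.1+, 164 in KO NK1.1- and 63.8 in control cells. The KO NK1.1- fraction was highest and the KO NK1.1+ fraction lowest. The gene was 2.58-fold higher in KO NK1.1- than in control cells, 2.29-fold lower in KO NK1.1+ than in control cells, and 5.90-fold lower in KO NK1.1+ than in KO NK1.1- cells. The lower value in KO NK1.1+ against control (log2 -1.19) was under 2-fold with the level moved to the 75th percentile (-0.24), an offset of 32 (-0.68), quantile normalization (-0.98) and median scaling (-0.75). Of 5 other genes of follicular helper T cells, 3 were called higher and 0 lower in KO NK1.1+ against control, where Cxcr5 was lower, with a median log2 difference of 1.82 and Bcl6, the transcription factor of these cells, at 691 against 196. The same genes gave 4 called higher and 0 lower in KO NK1.1- against control, with a median of 1.51. There Il21, a cytokine for B cell help, read 131 against 10.5 and Pdcd1, encoding PD-1, 171 against 60.1. Bcl6, at 241 against 196, was not called there. In KO NK1.1+ cells Pdcd1 read 36.0, below its control value, and was not called. Markers of B and plasma cells summed to 13366 in KO NK1.1+, 1274 in KO NK1.1- and 2310 in control cells, and 3 of 7 were called higher and 1 lower in KO NK1.1+, and 1 higher and 3 lower in KO NK1.1-, against control. Most of the KO NK1.1+ sum came from Ighm, an immunoglobulin chain gene, at 10744 against 1904 in control cells, and Jchain, at 2282 against 15.9. Both were called higher there, as was Cd22 at 182 against 82.7, while Cd79b was called lower at 24.5 against 53.7. Ms4a1, encoding CD20, read 108 in KO NK1.1+, 76.7 in KO NK1.1- and 212 in control cells. Cd79a and Pax5 were below the level on all 3 arrays. In KO NK1.1- cells, however, Cd22 read 359 against 82.7 in control cells. Cd4, a marker of the helper lineage, read 169 in KO NK1.1+, 378 in KO NK1.1- and 344 in control cells. Of 4 measured markers of CD4 and regulatory T cells, 4 were called lower in KO NK1.1+ against control. In KO NK1.1- against control 1 was called lower and 0 higher. The lower one there was Foxp3, which read 10.1 in KO NK1.1+, 33.3 in KO NK1.1- and 97.1 in control cells. Ctla4 read 63.2, 1344 and 1189 in the same order. The part of other cell types in the Cxcr5 values was not tested.

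Cxcr4, the receptor for CXCL12 that holds leukocytes in bone marrow (probe set 1448710_at), read 221 in KO NK1.1+, 134 in KO NK1.1- and 75.8 in control cells. The values lay in the same order as those of Cx3cr1 and Ccr2 but closer together. Cxcr4 was 2.92-fold higher in KO NK1.1+ and 1.77-fold higher in KO NK1.1- than in control cells, the second under the 2-fold limit. The first was also under it, at a log2 difference of 0.30, with arrays scaled to the hybridisation controls. KO NK1.1+ and KO NK1.1- cells differed by 1.65-fold, which passed 2-fold after quantile normalization (1.02) and median scaling (1.20), and turned to -0.61 with the hybridisation controls. Neutrophils also carry CXCR4, and their markers summed to 349, 189 and 184 in KO NK1.1+, KO NK1.1- and control cells. In KO NK1.1+ against control 2 of 4 were called higher, S100a8 at 236 against 97.9 and S100a9 at 67.6 against 27.8. Camp and Ltf were not called there and read lower, at 14.7 against 19.5 and 15.4 against 27.3. In KO NK1.1- against control 0 of 4 were called higher and 1 lower, Camp at 6.59 against 19.5. Mmp8 and Csf3r were below the level on all 3 arrays. A link of these markers to Cxcr4 was not tested.

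Ccr9 encodes the receptor for CCL25, a chemokine of thymus and small intestine, and is carried by thymocytes, naive CD8+ T cells and gut-homing T cells. Its brightest probe set, 1427419_x_at, read 14.9 in KO NK1.1+, 36.9 in KO NK1.1- and 293 in control cells. A second probe set, 1421920_a_at, read 8.47, 17.7 and 110, in the same order of groups. Control cells were highest by both, and Ccr9 was 19.6-fold lower in KO NK1.1+ and 7.93-fold lower in KO NK1.1- than in control cells by the first, and at least 11.4-fold and 6.23-fold lower by the second. The KO NK1.1+ value of 14.9 lies under the 17.0 that genes not used by lymphocytes reached on that array. Another pair of probe sets read 19.2, 9.90 and 12.04, and 13.2, 7.73 and 13.5, near the background level on every array, and the fifth was below it throughout. The first 2 probe sets carry a suffix that marks probes shared with several transcripts or other sequences. With suffixed probe sets left out, the log2 difference from control was 0.67 in KO NK1.1+ and -0.28 in KO NK1.1- cells, on values near background. Of the thymocyte markers Rag1, Rag2 and Ptcra were below the level on all 3 arrays, and Dntt read 6.46 in KO NK1.1+, 6.40 in KO NK1.1- and 13.6 in control cells. Cd1d1, also on that marker list, was well above the level, at 1346, 1817 and 1291 in the same order.

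Gpr15 encodes a chemoattractant receptor that guides T cells to the large intestine, and TGF-β is known to raise it in T cells. Its probe set 1431296_at read 5.24 in KO NK1.1+, 5.17 in KO NK1.1- and 80.5 in control cells. The gene was measured in control cells only, and lay at least 8.34-fold lower in each KO fraction. With the level moved to 54.0, the 75th percentile of the table, each difference came to -0.58 on the log2 scale. Gpr15 has 1 probe set, and the KO fractions could not be set against each other because both were below the level. The part of TGF-β signalling or of other cell types in the Gpr15 values was not tested.

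**Figure D3:**
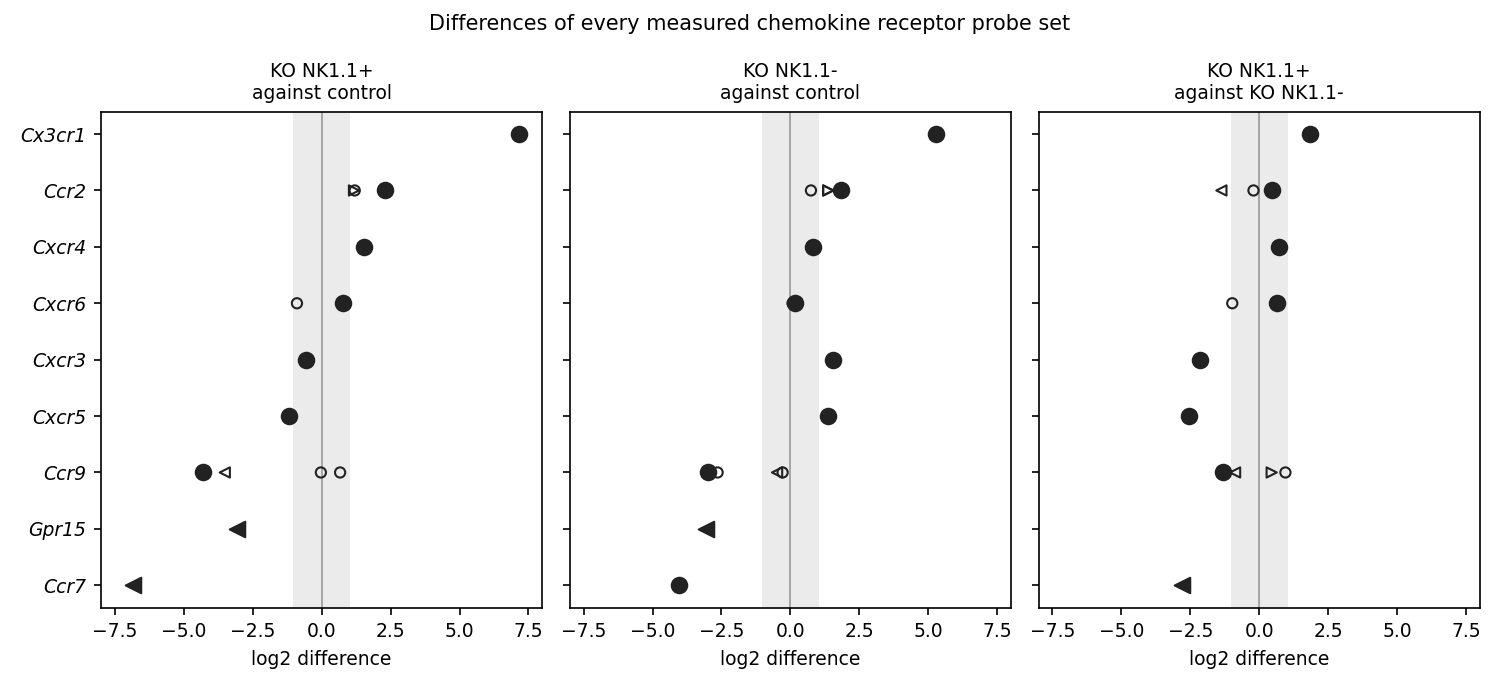
Log2 differences of every measured chemokine receptor probe set in KO NK1.1+ against control, KO NK1.1- against control and KO NK1.1+ against KO NK1.1-, with large filled symbols for the brightest probe set, small open ones for the others, triangles for lower bounds and a grey band under 2-fold. The probe sets of Ccr9 split into 2 at -4.30 and -3.51 (a bound) and 2 at -0.03 and 0.67 in KO NK1.1+ against control, and those of Cxcr6 lie on either side of 0.

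Position on the chromosome went with no shared direction. In the RefSeq gene order of chromosome 9, the protein-coding genes from Ccr9 to Ccr2 are Ccr9, Fyco1, Cxcr6, Xcr1, Ccr1, Ccr1l1, Ccr3 and Ccr2. Ccr9, at one end, had log2 differences from control of -4.30 in KO NK1.1+ and -2.99 in KO NK1.1- cells, and Ccr2, at the other end, 2.30 and 1.85. Cxcr6, between them, had 0.79 and 0.15, and Fyco1, an adaptor of vesicle transport and not a receptor, 0.16 and 0.36. Xcr1, Ccr1l1 and Ccr3 were below the level on all 3 arrays, and Ccr1 was near it at 11.7, 10.5 and 10.3 in KO NK1.1+, KO NK1.1- and control cells.

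**Figure D4:**
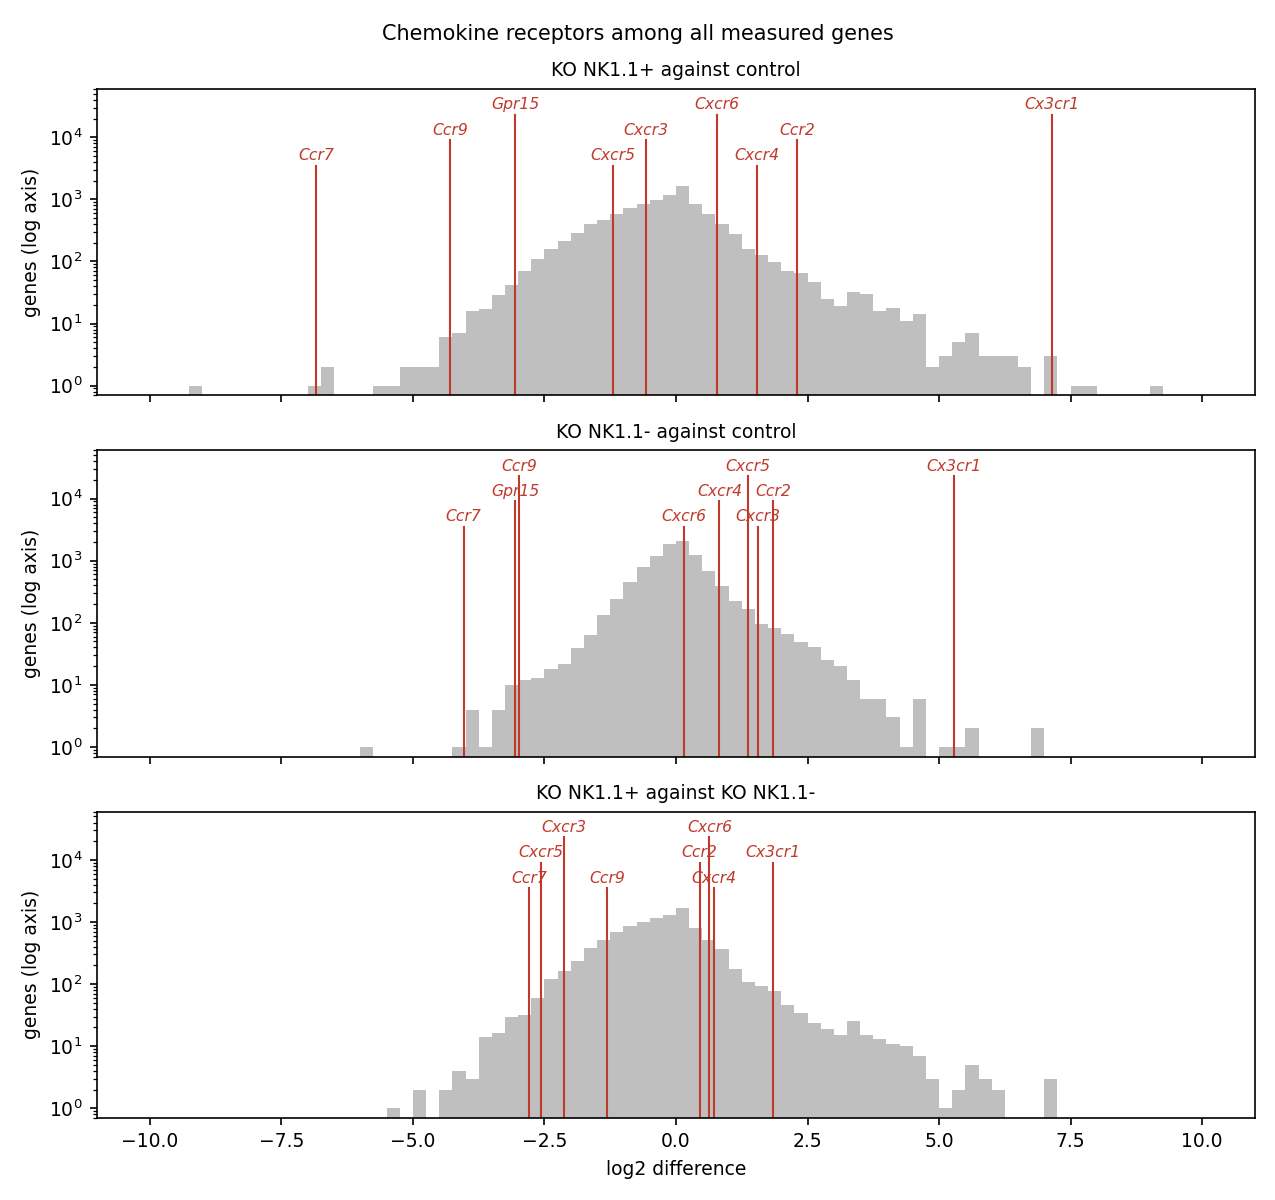
Distribution of log2 differences over all measured genes (grey, number of genes on a log axis) in the 3 comparisons, with red lines at the chemokine receptors. In KO NK1.1+ against control Ccr7, at -6.83, and Cx3cr1, at 7.14, lie near the ends of the distribution, while Cxcr3 and Cxcr6 lie within 1 of 0.

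Genes with the most similar pair of differences from control were listed for each receptor, over 3 arrays and among genes measured on the same arrays as the receptor. For Ccr2 these were Ikzf3, Mettl7a1 and Mir22hg, at distances of 0.05 to 0.11 on the log2 scale, and for Ccr9 Ramp1, Treml2 and St8sia1, at 0.03 to 0.12. Cxcr3 lay nearest to Ska1, Hmgb3 and Atpif1, at 0.02 to 0.06, and Cxcr5 to Tcf19, Ndc80 and Tedc1, at 0.05 to 0.19. Near Cxcr4 lay Usp46, Agbl5 and Zxdb, at 0.06 to 0.07, and near Cxcr6 Usp37, Fam199x and Cep295, at 0.02 to 0.04. Cx3cr1 had no close neighbour. Its nearest genes were Dock5, Gzma and Esm1, at 1.66, 1.76 and 2.46, among 8889 genes measured on all 3 arrays. Ccr7 lay near Tdrp alone, at 0.20, with Adcy6 and St8sia6 next at 1.89 and 1.92. Ccr7 and these genes were below the level in KO NK1.1+ cells, so that their differences there compare control intensities only. For Gpr15, measured in control cells only, the nearest of 196 genes were Ampd1, Pdlim4 and Xkrx, at 0.15 to 0.30. Both KO values of Gpr15 and of these genes were set to the background level, so that distance compares control intensities only. A likeness over 3 arrays is a description.

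Most other chemokine receptor genes were not measured. Of 16 on the array, 10 were below the level on all 3 arrays, among them Ccr3, Ccr4, Ccr8, Ccr10 and Cxcr2. In KO NK1.1+ against control, 1 of 6 measured was called higher and 1 lower, beside 9.85% and 22.9% of all measured genes. The median was 0.10. Cmklr1, the chemerin receptor of NK cells and macrophages, read 69.3 against 18.9 (3.67-fold higher), and Ccr6, the receptor for CCL20, read 7.66 against 76.7 (at least 7.94-fold lower). In KO NK1.1- against control, 0 of 5 were called higher and 1 lower, beside 8.05% and 5.56% of all measured genes. The median was 0.02, and the lower one was Ccr6 again at 10.6 against 76.7 (7.23-fold lower). With the KO fractions set against each other 1 of 6 was called higher in KO NK1.1+ cells, Cmklr1 at 2.21-fold, and 0 lower. Those counts stand beside 6.53% and 21.3% of all measured genes, and the median was 0.08.

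Ligands of the 9 receptors were measured rarely, and those called all bind CXCR3. Of 12 ligand genes on the array, 8 were below the level on all 3 arrays, including Ccl2, Cxcl12, Cxcl13, Cxcl16 and Cx3cl1. In KO NK1.1+ against control 3 of 4 were called higher, with Cxcl9 at 191 against 4.76 (at least 19.8-fold), Cxcl10 at 69.7 against 15.8 (4.40-fold) and Cxcl11 at 27.5 against 13.7 (2.00-fold). In KO NK1.1- against control 1 of 4 was, Cxcl10 at 88.2 against 15.8 (5.58-fold). No ligand was called lower in any of the 3 comparisons, and between the KO fractions 1 of 3 was called higher in KO NK1.1+ cells, Cxcl9 by 17.9-fold. The medians were 1.57, 0.08 and 0.99 for KO NK1.1+ against control, KO NK1.1- against control and the KO fractions.

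Genes that carry or damp the receptor signal were called in both directions. In KO NK1.1+ against control, 5 of 33 measured were called higher, beside 9.85% of all measured genes, and 6 lower, beside 22.9%. The median was -0.01. Grk3, a kinase that desensitizes activated receptors, read 216 against 6.93 (at least 22.3-fold higher), while Rgs10, which speeds the inactivation of G proteins, read 51.0 against 694 (13.6-fold lower). Rgs2 and Rgs16, of the same family as Rgs10, were 4.63-fold and 4.04-fold higher. In KO NK1.1- against control, 4 of 32 were called higher, beside 8.05% of all measured genes, and 1 lower, beside 5.56%. The median was 0.07. The lower one was Rgs10 at 106 against 694 (6.57-fold), and the higher ones were Gng2, a G protein γ chain, at 3.83-fold, Rgs16 at 3.69-fold, Grk5, a kinase like Grk3, at 2.96-fold and 1 more. Between the KO fractions, 2 of 33 were called higher in KO NK1.1+ cells, beside 6.53% of all measured genes, and 7 lower, beside 21.3%. The median was -0.38. The higher ones were Grk3, by at least 22.3-fold, and Rgs2, by 8.80-fold. Among the lower ones were Gnb2 at 2.58-fold and Rac1 at 2.56-fold. The shared transducer Gnai2 differed by less than 2-fold in each comparison, at 3429 in KO NK1.1+, 4092 in KO NK1.1- and 2381 in control cells, and was chosen after its values were seen.

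Among 13 adhesion and egress genes that act beside these receptors, 3 were called higher and 3 lower in KO NK1.1+ against control (median -0.19). The shares of all measured genes there were 9.85% and 22.9%. In KO NK1.1- against control 4 were called higher and 2 lower (median 0.30), beside 8.05% and 5.56% of all measured genes. S1pr5, a sphingosine-1-phosphate receptor of circulating NK and effector cells, read 5741 in KO NK1.1+, 1148 in KO NK1.1- and 10.05 in control cells, in the order of Cx3cr1. Itgae, the αE integrin of gut-resident T cells, read 21.4, 44.6 and 444, in the order of Ccr9. Cd44, the hyaluronan receptor of activated T cells, read 2444, 2056 and 568, above control in both KO fractions. Itgb7, the integrin chain that pairs with αE and α4, read 538, 1475 and 2270, with the KO NK1.1+ fraction 4.22-fold below control and 2.74-fold below the KO NK1.1- fraction. Itgb1, another integrin chain, read 654, 2606 and 596, with the KO NK1.1- fraction 4.38-fold above control. With one KO fraction set against the other, 1 of 13 was called higher and 3 lower in KO NK1.1+ cells, with a median of -0.47. The shares of all measured genes there were 6.53% and 21.3%.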

How the data were processed

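A single Affymetrix array was run on CD8+ T cell RNA of each of 3 groups, named from the sample titles. The authors deposited linear probe set intensity values, made with GCRMA 1.1.3 per the submitters' processing notes, a method that corrects background by probe sequence and normalizes between arrays; its settings are not stated. Arrays limit precision by their number, and there were 3. Of 45101 probe sets, 64 were controls. GEO's platform annotation gave 34945 probe sets a single symbol, 932 more than 1 and 9160 no symbol. By Entrez identifier, 34754 probe sets matched RefSeq (GRCm38.p6), which changed 0 symbols.

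A gene took its probe set with the highest mean. Values under 9.66 were raised to it, log2 was taken, and differences of at least 1 were called, with Python 3.11.15, numpy 2.4.6 and pandas 2.3.3. The rules were tested on simulated data with little noise and with large changes planted in bright genes only. That check cannot show how reliable calls near 2-fold or near the background level are. Alternatives were another level, an offset, other probe set rules, 3 scalings and a stricter limit. All receptors were named with every probe set. From each list of other genes, at most the 4 called genes with the largest difference per comparison were named, and defining markers. The 3 genes nearest to each receptor in the plane of both differences from control were also named. The receptors, lists and motifs were chosen with earlier results of these data known.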

Additional observations from a re-analysis of the deposited data

Results flagged for a closer look

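Cxcr5 differed in direction between the KO fractions. It was lower in KO NK1.1+ than in control cells (log2 difference -1.19) and higher in KO NK1.1- than in control cells (1.37), which puts the fractions -2.56 apart on the log2 scale. Each side is 1 array, both differences use the same control array, and the difference was not tested. No group had enough arrays to look for a deviating one.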

How the results depend on the processing

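No paired analysis was possible because each group had 1 array, and for the same reason no replicate could be left out. Over 9 alternatives, of which a level of 17.0 was added after seeing the data and changed no call, 48 of 54 counts of called receptors stayed within 1.5 times. The count lower was 2 in place of 4 with the level moved to the 75th percentile of the table, both in KO NK1.1+ against control and in KO NK1.1+ against KO NK1.1-. Between the KO fractions the count higher, 1 as reported, was 0 with the mean of all probe sets, 2 after quantile normalization, 3 after scaling to the median of commonly measured genes and 0 after scaling to the hybridisation controls. Those 3 scalings moved the median of all genes in KO NK1.1+ against control by 0.11, 0.36 and -1.16, and the share of genes called higher and lower there, 9.85% and 22.9%, to 12.6% and 18.6%, 15.6% and 13.2%, and 3.21% and 63.3%. The shares in KO NK1.1+ against KO NK1.1-, 6.53% and 21.3%, became 9.07% and 16.1%, 12.5% and 9.84%, and 1.9% and 68%. Ccr9 turned to 0.67 in KO NK1.1+ against control and 0.95 in KO NK1.1+ against KO NK1.1- without suffixed probe sets, on values near background. A stricter limit of 1.5 on the log2 scale ended the calls of Cxcr5 against control in both KO fractions and of Ccr9 between them. Apart from the shift that each scaling and level gives by construction, causes were not tested.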
